A study of Mus musculus with 6 samples.

Results

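The genes described here are 51 nuclear genes for subunits of the 5 complexes of oxidative phosphorylation. They were taken by gene symbol from a list grouped by complex. The rule uses no measured value, but the list was drawn up with earlier results of these data known. The deposited table holds 41449 rows, and each of the 51 symbols has 1 row in it. There are 19 genes of complex I (Nduf), 4 of complex II (Sdh), 6 of complex III (Uqcr and Cyc1), 10 of complex IV (Cox) and 12 of complex V (Atp5).

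The study sequenced total RNA from whole mouse lenses to learn what fibronectin, an extracellular matrix protein, does in the lens after birth. One group held wild-type mice (WT) of strain C57BL/6, and the other held mice with a conditional knockout of fibronectin (FNcKO) on a mixed background of C57BL/6, 129 and FVB/N. Both groups were 2 months old, with 3 biological replicates per genotype and 2 lenses pooled in each. The Cre line is not given in the sources used here, and genotype and strain background cannot be told apart. In such bulk samples, fewer cells of a type and less RNA per cell cannot be told apart either.

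Oxidative phosphorylation is the last stage of aerobic energy production, run by protein complexes in the inner mitochondrial membrane. Complexes I and II feed electrons from NADH and succinate to ubiquinone, complex III passes them to cytochrome c, complex IV passes them to oxygen, and complex V, the ATP synthase, uses the resulting proton gradient to make ATP. Most subunits are encoded in the nucleus, while a small set is encoded by mitochondrial DNA. In the lens, mitochondria are found in the epithelium and the outer fiber cells, whereas fibers that mature toward the centre of the lens lose their organelles.

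The upstream regions of these genes are shown first because the 51 genes lie on many chromosomes and share no position, and known regulators of the family act through short motifs near the start site. Windows from 250 bases before to 50 bases after the start site were available for 40 of the 51 genes (45 windows, RefSeq, GRCm38.p6). The genes without a window used here were Ndufa2, Ndufb9, Ndufs1, Sdhc, Uqcrc2, Uqcrb, Uqcrq, Cyc1, Cox4i1, Cox6c and Atp5a1. Each stretch printed here is the 120 bases before the start site, 5′ to 3′ on the gene's strand. Capitals mark the letters of a motif of nuclear respiratory factor 1 (NRF1) or of GABP and other ETS factors. Atp5k carries the full NRF1 motif and Ndufa6 its 8-letter core. Ndufb7, Atp5e and Sdhd carry the ETS motif, in Atp5e and Sdhd on the other strand, and Ndufb7 and Atp5e are shown because their p-values in the comparison of the groups were low. Of the genes with a window, 2 of 12 with the ETS letters and 2 of 28 without them had an unadjusted p under 0.05.
Atp5k, chr5:108434400-108434519, minus strand: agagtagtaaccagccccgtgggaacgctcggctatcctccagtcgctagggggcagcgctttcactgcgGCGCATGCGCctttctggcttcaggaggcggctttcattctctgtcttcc
Ndufa6, chr15:82354292-82354411, minus strand: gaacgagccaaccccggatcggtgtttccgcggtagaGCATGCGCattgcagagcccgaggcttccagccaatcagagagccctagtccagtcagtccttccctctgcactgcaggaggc
Ndufb7, chr8:83566638-83566757, plus strand: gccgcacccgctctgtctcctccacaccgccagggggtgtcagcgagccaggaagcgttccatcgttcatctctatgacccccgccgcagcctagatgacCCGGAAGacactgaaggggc
Atp5e, chr2:174464102-174464221, minus strand: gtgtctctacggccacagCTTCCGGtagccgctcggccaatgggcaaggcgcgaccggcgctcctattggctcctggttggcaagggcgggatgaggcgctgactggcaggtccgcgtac
Sdhd, chr9:50603850-50603969, minus strand: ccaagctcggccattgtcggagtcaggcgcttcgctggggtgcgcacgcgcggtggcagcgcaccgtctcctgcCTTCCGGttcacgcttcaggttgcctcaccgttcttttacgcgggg

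Each motif was searched as fixed letters on both strands of the 300-base windows, and a match describes letters, not binding. The ETS motif CCGGAAG was present in 12 of the 45 windows (26.7%), against 8.86% of all 32851 windows and 18.7% of the 8606 windows of genes tested here. The full NRF1 motif, the capitals in the Atp5k stretch, reads the same on both strands. It was present in 3 windows (6.67%), those of Atp5k, Cox6a1 and Uqcrc1, against 0.971% of all windows and 2.15% of those of tested genes. Its core GCATGCGC, which lies within the longer motif, was present in 6 windows (13.3%), against 2.71% and 5.61%. The YY1 motif AAGATGGCG was present in 3 windows (6.67%), against 1.4% and 3.64%, in Atp5j, Ndufa9 and Ndufs4. The Sp1 motif GGGCGG was present in 37.8% of the windows, against 35.7% of all windows and 64.1% of those of tested genes. Genes with the ETS letters had a median level of 106.3 FPKM (fragments scaled by transcript length and library size), against 52.6 FPKM in the 28 genes whose windows lacked them. The median difference between FNcKO and WT was the same to 2 decimals in both sets, at −0.09 on the log2 scale.

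All 51 genes were detected in every library that had a value for them, and all passed the filter of a mean of at least 1 FPKM. Mean levels over the 6 libraries ran from 2.94 FPKM for Ndufs1, the largest subunit of complex I, to 356.3 FPKM for Cox6c, a small subunit of complex IV, a 121-fold range with a median of 58.0 FPKM. Complex IV genes had the highest median level (117.8 FPKM), followed by complex V (85.4 FPKM), complex I (58.7 FPKM), complex III (13.1 FPKM) and complex II (7.57 FPKM). FPKM is scaled by gene length, so these levels can be set side by side, although they still followed length. The Spearman correlation of mean level with transcript length over the 51 genes was −0.724, given as a description because the genes share the same libraries. The 28 genes whose principal transcript is shorter than 1000 bases had a median of 101.4 FPKM, and the 23 longer ones 17.7 FPKM. For genes with several principal transcripts, the longest was used in both comparisons. Atp5g1, Uqcrq and Atp5d thus counted as long, although each also has a principal transcript under 1000 bases.

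**Figure D1:**
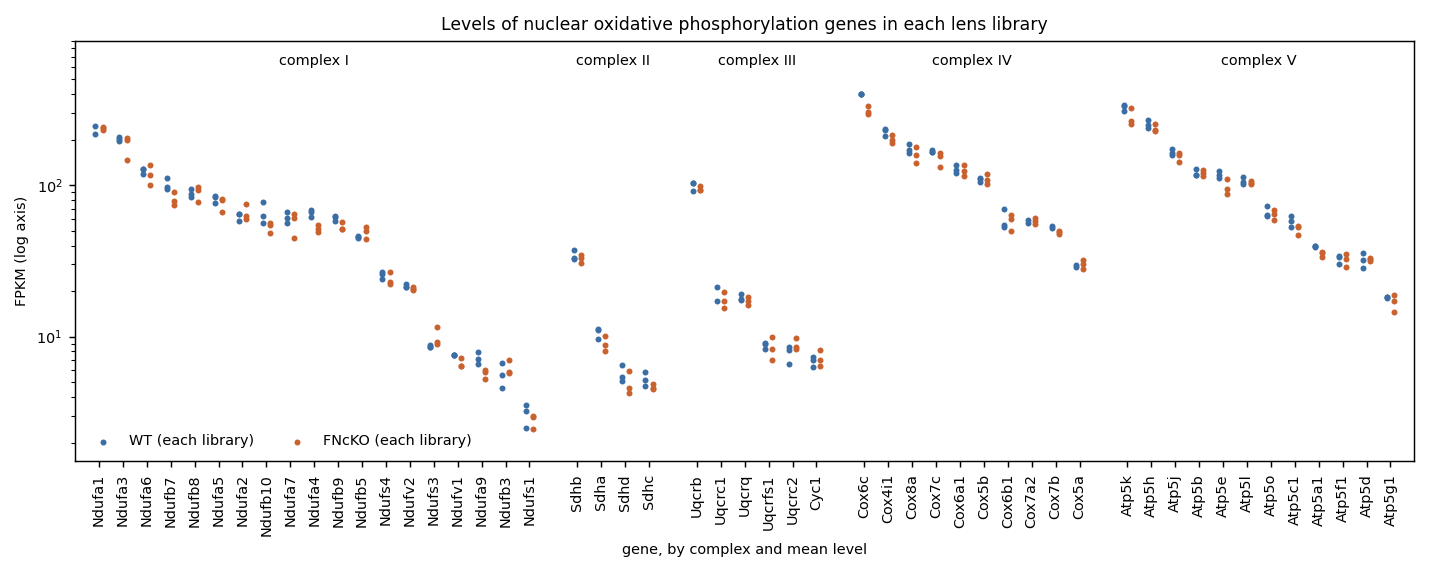
Level of each of the 51 genes in FPKM on a log axis, grouped by complex, with 1 point per library coloured by genotype. Complex IV and complex V genes sit highest and complex II genes lowest, and for most genes the points of both genotypes lie on top of each other.

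Within complexes, the spread between subunits was widest in complex I, where Ndufa1 at 234.9 FPKM stood 79.8-fold above Ndufs1. The ratio of the highest to the lowest gene was 17.3 in complex V (Atp5k at 303.7 FPKM over Atp5g1 at 17.6 FPKM), 13.8 in complex III (Uqcrb at 97.3 FPKM over Cyc1 at 7.05 FPKM), 12.0 in complex IV (Cox6c over Cox5a at 29.8 FPKM) and 6.79 in complex II (Sdhb at 33.6 FPKM over Sdhc at 4.95 FPKM). The order of the 51 genes was nearly identical in WT and FNcKO lenses, with a Spearman correlation of the group means of 0.993, again a description only. The median coefficient of variation between replicates was 5.65% in WT and 8.03% in FNcKO.

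The comparison of FNcKO with WT lenses asked which transcripts differ when fibronectin is deleted. None of the 51 genes passed limma's test at an adjusted p under 0.05, while 1.89% of the 10149 genes tested did (192 genes). The smallest adjusted p was 0.0805, for Cox6c, and the largest 0.996. Differences were small throughout, from −0.36 for Cox6c to 0.18 for Uqcrc2 and Ndufs3, on the log2(FPKM + 1) scale. The median standard error was 0.092, and the 95% interval lay within 1.5-fold in either direction for 50 of the 51 genes (98.0%). The exception was Ndufb10 (−0.61 to 0.05), and all 51 intervals lay within 2-fold. Over all genes tested, 77.3% of the intervals lay within 1.5-fold.

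The small differences leaned downward in the deposited FPKM. In FNcKO, 39 of the 51 genes had a log2 difference under 0 (76.5%), against 60.3% of all genes tested, and the median was −0.09 against −0.04. At an unadjusted p under 0.05, 7 genes were lower (13.7%), against 11.4% of all genes, and 0 were higher, against 6.74% of all genes. The count of 7 became 4 without WT replicate 1 and 3 without WT replicate 3. For 11 genes all 3 FNcKO libraries were below all WT libraries (21.6%, against 16.3% of all genes), and for 1 gene, Ndufs3, all were above (1.96%, against 9.31%). The shares at low p and without overlap in the downward direction were thus near those of all genes. The sign of the lean depended on the scaling between libraries: with every library scaled to the same FPKM total, 7 of the 51 genes were under 0 in place of 39.

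**Figure D2:**
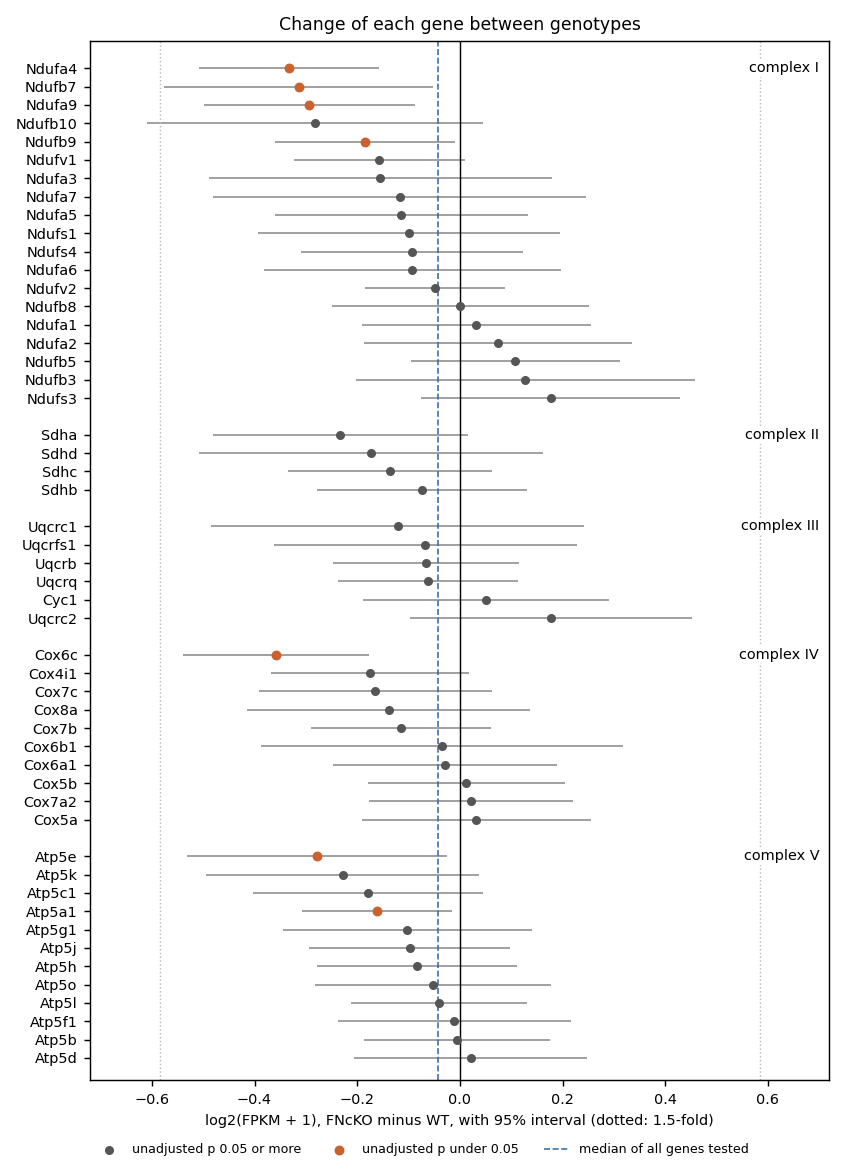
Difference between FNcKO and WT in log2(FPKM + 1) for each of the 51 genes, ordered by complex, with bars for the 95% interval, orange points for an unadjusted p under 0.05, a dashed line for the median of all genes tested and dotted lines at 1.5-fold. Most points lie just under 0, from −0.36 for Cox6c to 0.18 for Uqcrc2, and no gene passed the adjusted threshold.

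Complex IV, cytochrome c oxidase, held the gene with the largest difference. Cox6c, a small subunit with 1 membrane span at chr15:35931976-35938246, measured 402.2, 398.2 and 400.1 FPKM in the WT libraries and 305.0, 336.1 and 296.3 FPKM in the FNcKO libraries. The WT values were almost equal and every FNcKO value lay below them. The means were 400.2 ± 1.99 and 312.5 ± 20.9 FPKM (± SD, 3 libraries per group), 1.28-fold lower in FNcKO, with a log2 difference of −0.36 (SE 0.074, 95% interval −0.54 to −0.18, limma adjusted p = 0.0805). Cox6c alone made up 24.7% of the summed FPKM difference over the 46 genes that lack no library.

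The other complex IV genes differed less. Cox4i1, the ubiquitous form of a large nuclear subunit that takes part in control by ATP, measured 212.7, 232.6 and 236.7 FPKM in WT and 199.1, 213.6 and 190.9 FPKM in FNcKO. Its groups overlapped by a narrow margin, and the difference was −0.18 (95% interval −0.37 to 0.02, adjusted p = 0.314). Cox7c measured 166.6, 167.0 and 172.2 FPKM in WT and 163.0, 156.6 and 132.9 FPKM in FNcKO, a difference of −0.17 (adjusted p = 0.417) with no overlap. Cox7b also did not overlap, at 52.1 and 53.8 FPKM in the 2 WT libraries with a value and a FNcKO mean of 48.8 ± 1.24 FPKM (SD, n = 3), with an adjusted p of 0.459. Both are small subunits of the outer shell of the enzyme. Cox8a stood at −0.14, and Cox6a1, Cox6b1, Cox5b, Cox7a2 and Cox5a, the lowest of the complex at 29.8 FPKM, lay between −0.04 and 0.03.

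Complex I, NADH dehydrogenase, had 13 of 19 genes under 0 and a median difference of −0.10, with 4 genes lower at an unadjusted p under 0.05 (21.1%, where the share over all genes was 11.4%) and 6 without overlap in the same direction (31.6%, against 16.3%). Ndufa4 (chr6:11900373-11907446), named as a complex I gene but since found with complex IV, measured 61.8, 66.7 and 68.2 FPKM in WT and 54.7, 49.5 and 51.3 FPKM in FNcKO. All FNcKO values lay below all WT values, with a difference of −0.33 (SE 0.071, 95% interval −0.51 to −0.16, adjusted p = 0.087). So the 2 genes nearest to the threshold among the 51, Cox6c and Ndufa4, are both subunits found with cytochrome c oxidase. The pair was picked out after its values were seen, and its neighbours in that enzyme did not share the size of the difference.

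Among the genes of the arm that carries ubiquinone reduction, Ndufa9 (chr6:126821863-126849144), which sits beside the quinone site, measured 7.09, 6.63 and 7.87 FPKM in WT and 5.22, 6.03 and 5.81 FPKM in FNcKO. The groups did not overlap, and the difference was −0.29 (95% interval −0.50 to −0.09, adjusted p = 0.162). Ndufs3, a core subunit of the same arm, was the only one of the 51 with all FNcKO values above all WT values, at 9.29, 11.7 and 8.95 FPKM against 8.60, 8.81 and 8.53 FPKM. The gap between the groups was narrow and FNcKO replicate 2 stood well above the rest, with a difference of 0.18 and an adjusted p of 0.434. Ndufa5 and Ndufa6, accessory subunits of this arm, stood at −0.11 and −0.09.

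The membrane arm, whose proton-pumping core is encoded by mitochondrial DNA, was split, with 4 of its 8 nuclear accessory genes under 0. Ndufb7 (chr8:83566758-83571623), whose upstream ETS letters are printed with the promoter sequences, measured 95.1, 96.7 and 111.9 FPKM in WT and 90.9, 78.8 and 74.2 FPKM in FNcKO, without overlap. Its difference was −0.31 (SE 0.107, 95% interval −0.58 to −0.05, adjusted p = 0.215). Ndufb9 (61.9, 58.4 and 63.0 FPKM against 51.7, 57.5 and 51.8 FPKM) also did not overlap, at −0.18 with an adjusted p of 0.257. Ndufb10 showed no overlap but a wide spread in WT, from 56.3 to 77.7 FPKM, against 48.5 to 56.2 FPKM in FNcKO. Ndufa1, the most abundant complex I transcript and encoded on the X chromosome, was nearly level at 232.0 ± 19.2 FPKM in WT (SD, n = 2) and 236.9 ± 4.55 FPKM in FNcKO (SD, n = 3), a difference of 0.03 (95% interval −0.19 to 0.26). Ndufa3 measured 196.2 to 209.5 FPKM in WT, and in FNcKO 203.8, 198.7 and 147.5 FPKM, so 1 library carried its difference of −0.15. Ndufb3, Ndufb5 and Ndufb8 stood at 0.13, 0.11 and 0.00.

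The module that takes electrons from NADH had 5 of 6 genes under 0. Ndufv1, which carries the flavin and the NADH site, measured 7.53, 7.58 and 7.53 FPKM in WT and 6.37, 6.38 and 7.29 FPKM in FNcKO. The groups did not overlap, and the difference was −0.16 (95% interval −0.32 to 0.01, adjusted p = 0.298). Ndufs1, which holds several iron-sulfur clusters and had the lowest level of all 51 genes, measured 3.22, 2.51 and 3.53 FPKM against 3, 2.97 and 2.44 FPKM, fully overlapping. Ndufv2, Ndufs4 and Ndufa7 stood at −0.05, −0.09 and −0.12, and Ndufa2 at 0.07.

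Complex II, succinate dehydrogenase, has no subunit encoded by mitochondrial DNA and also works in the TCA cycle. All 4 of its genes were under 0, with a median of −0.15, and for all 4 the groups overlapped. Sdha, the flavoprotein that oxidizes succinate, measured 11.1, 9.71 and 11.3 FPKM in WT and 8.05, 10.1 and 8.75 FPKM in FNcKO. Only FNcKO replicate 2 reached into the WT range, and the difference was −0.23 (95% interval −0.48 to 0.02, adjusted p = 0.300). Its partner Sdhb, the iron-sulfur subunit, measured 33.3, 32.7 and 37.6 FPKM against 34.6, 33.2 and 30.5 FPKM, a difference of −0.07. The membrane anchors Sdhc (4.54 to 4.88 FPKM in FNcKO against 4.75 to 5.83 FPKM in WT) and Sdhd (4.28 to 5.98 FPKM against 5.08 to 6.54 FPKM) stood at −0.14 and −0.17. Of the 5 complexes, complex II had the lowest median under each of the 5 scalings tried, although it rests on 4 genes of which 3 are below 10 FPKM and no member passed the test.

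Complex III had the median nearest to 0 (−0.06), with 4 of 6 genes under 0, none at an unadjusted p under 0.05 and none without overlap. Uqcrb, a small subunit near the quinone site, measured 92.0, 103.1 and 103.9 FPKM in WT and 93.3, 98.3 and 93.5 FPKM in FNcKO. These values were interleaved, and the difference was −0.07 (adjusted p = 0.691). The structural core proteins differed in sign: Uqcrc2 stood at 0.18 (95% interval −0.10 to 0.45, adjusted p = 0.468) and Uqcrc1 at −0.12, with 17.1 and 21.1 FPKM in the 2 WT libraries that had a value and 15.5 to 19.7 FPKM in FNcKO. Cyc1, the cytochrome c1 heme protein, stood at 0.05, Uqcrfs1, the Rieske iron-sulfur protein, at −0.07 and Uqcrq at −0.06.

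In complex V, 11 of 12 genes were under 0, with a median of −0.09 and 2 genes lower at an unadjusted p under 0.05 (16.7%, where the share over all genes was 11.4%). Both belong to the F1 part, which makes ATP. Atp5a1, the alpha subunit of the head, measured 39.5, 39.3 and 39.5 FPKM in WT and 33.4, 36.3 and 35.9 FPKM in FNcKO. The WT values differed from each other by far less than from any FNcKO value, and the difference was −0.16 (SE 0.060, 95% interval −0.31 to −0.02, adjusted p = 0.241). Atp5b, the catalytic beta subunit that pairs with it, was level at 121.3 ± 6.65 FPKM in WT and 120.8 ± 6.12 FPKM in FNcKO (± SD, 3 libraries per group), a difference of −0.01 (95% interval −0.19 to 0.18). Atp5e, the epsilon subunit of the central stalk (chr2:174461075-174464101), measured 111.7, 123.4 and 117.1 FPKM in WT and 110.1, 93.9 and 87.0 FPKM in FNcKO. Its groups were separated by a narrow gap, with a difference of −0.28 (95% interval −0.53 to −0.03, adjusted p = 0.241). The other central stalk genes were Atp5c1 (gamma) at −0.18 and Atp5d (delta) at 0.02.

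In the membrane part of the ATP synthase, Atp5k, the small e subunit, measured 339.1, 331.3 and 310.8 FPKM in WT and 322.3, 264.4 and 254.5 FPKM in FNcKO. FNcKO replicate 1 lay within the WT range and the other FNcKO libraries below it, a difference of −0.23 (95% interval −0.49 to 0.04, adjusted p = 0.341). Atp5g1, 1 of 3 genes that encode the same mature c-ring protein, measured 18.1 to 18.2 FPKM in WT and 17.3, 19.0 and 14.6 FPKM in FNcKO. Its paralog Atp5g2 measured 17.1 ± 2.52 FPKM in WT and 12.7 ± 0.606 FPKM in FNcKO, at −0.39 with an adjusted p of 0.166, and Atp5g3 measured 14.7 ± 1.20 and 14.5 ± 2.39 FPKM (± SD, 3 libraries per group), at −0.03. The 3 c-ring genes were thus of like abundance in WT lenses. Atp5l stood at −0.04. The 4 peripheral stalk genes, which hold the head in place, all lay just under 0, with Atp5j at −0.10, Atp5h at −0.08, Atp5o at −0.05 and Atp5f1 at −0.01. Atp5h, the second most abundant complex V transcript, measured 248.7, 239.0 and 269.4 FPKM in WT and 232.2, 253.1 and 229.1 FPKM in FNcKO.

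Summed over the 46 genes measured in all 6 libraries, FPKM reached 3741, 3850 and 3925 in WT and 3635, 3607 and 3211 in FNcKO. The groups did not overlap, and the FNcKO mean was 0.908 of the WT mean. The sums of complexes IV and V also did not overlap, at 0.881 and 0.918 of WT, while those of complexes I (0.918), II (0.914) and III (0.969) did. Without Cox6c the complex IV sums did overlap, at 828.9, 882.7 and 885.4 FPKM in WT and 843.3, 836.3 and 730.1 FPKM in FNcKO. The 5 genes with the largest FPKM difference, Cox6c, Atp5k, Cox4i1, Atp5e and Ndufb7, made up 56.7% of the summed difference. As a share of each library's FPKM total, the 46 genes held 0.217%, 0.226% and 0.241% in WT and 0.239%, 0.288% and 0.215% in FNcKO, which overlapped fully.

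A single library stood apart for these genes. FNcKO replicate 3 had the lowest of the 6 values for 31 of the 46 genes (67.4%), against 27.9% of the 9407 genes tested with every value, and it held the highest value for 0. WT replicate 3 had the highest value for 21 of them (45.7%), against 28.1%. On the log2 scale, the median deviation of the 46 genes from their own mean was −0.15 in FNcKO replicate 3, where that of all genes was −0.05, and 42 of the 46 were below their mean there. In FNcKO replicates 1 and 2 the medians were −0.00 and 0.01, inside the WT range of −0.01 to 0.09. Without FNcKO replicate 3, the median difference of the 51 genes was −0.03, against −0.02 for all genes, with 32 of 51 under 0, 4 genes lower and 1 higher at an unadjusted p under 0.05. The complex medians without it were −0.03 (I), −0.13 (II), 0.01 (III), −0.01 (IV) and −0.03 (V).

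**Figure D3:**
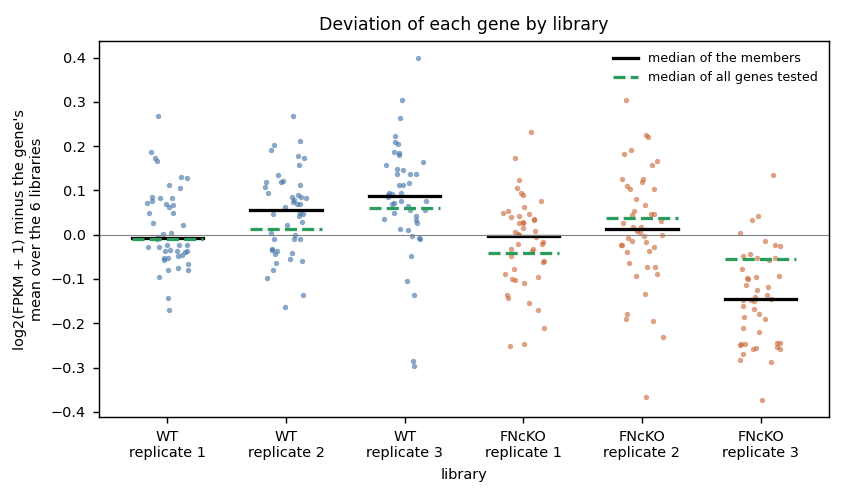
Deviation of each of the 46 genes from its mean over the 6 libraries in log2(FPKM + 1), by library, with 1 point per gene and the medians of these genes and of all genes tested marked. FNcKO replicate 3 sits lowest, with a median of −0.15 for these genes against −0.05 for all genes, and WT replicate 3 highest at 0.09.

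Libraries also differed in makeup, and the part of this in the differences was not tested. FPKM totals over rows with every value were 1631866 to 1725738 in WT and 1251386 to 1519627 in FNcKO, and crystallin genes took 22.6% to 24.5% of them in WT and 28.9% to 37.1% in FNcKO. Read depth per library was not used here as such. It was estimated from the steps between low values of rows 69 bases long, each from 3 to 5 values (WT replicate 2 gave none). These estimates were 0.674, 0.666 and 0.625 of that of WT replicate 1 in the FNcKO libraries, and 0.832 in WT replicate 3. FNcKO replicate 3 had the lowest of these. Such a step also holds the scaling between libraries, which is not given, so the estimates cannot be read as depth alone. Fn1 (chr1:71585473-71653234), the targeted gene, was near the floor throughout, at 0.135, 0.188 and 0.253 FPKM in WT and 0.128, 0.0482 and 0.0942 FPKM in FNcKO (two-sided exact permutation p = 0.1, the smallest that 3 against 3 allows).

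Scaling between libraries moved all of these genes together. As deposited, the median difference was −0.09 for the 51 genes and −0.04 for all genes tested. Median-ratio scaling gave −0.05 and −0.01, with 34 of 51 under 0. Quantile normalization of the 46 genes with every value gave 0.03 and 0.01, with 18 of 46 under 0. Scaling every library to the same FPKM total gave 0.15 and 0.15, with 7 of 51 under 0, and scaling to the same total without crystallins gave 0.32 and 0.29, with 0 under 0. The difference between these genes and all genes therefore stayed between −0.05 and 0.03 while the median itself ran from −0.09 to 0.32. No gene of the 51 passed an adjusted p under 0.05 in any of the 17 alternatives run, where the smallest values were 0.0559 for Cox6c and 0.0625 for Ndufa4. Cox6c ran from −0.41 to 0.07 over the same alternatives, and Ndufa4 from −0.37 to 0.09.

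**Figure D4:**
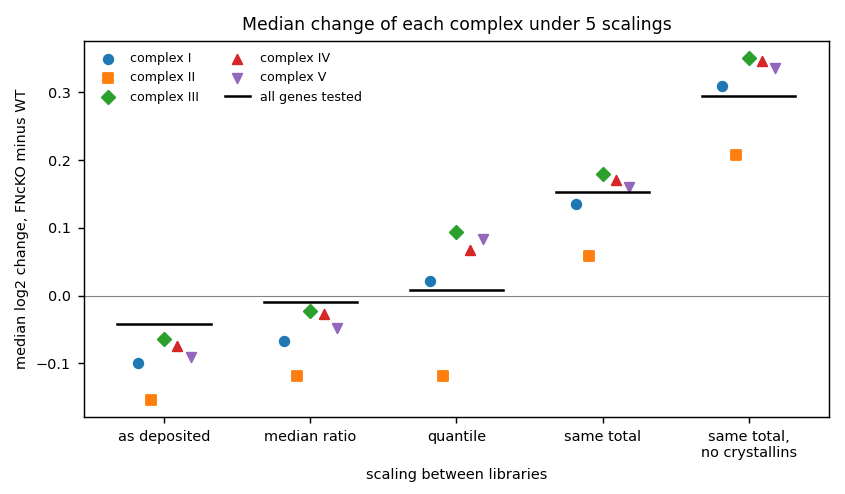
Median difference between FNcKO and WT in log2(FPKM + 1) of the genes of each complex and of all genes tested under 5 scalings of the libraries. The medians run from under 0 as deposited to above 0 with the totals made equal, and complex II stays the lowest of the 5 complexes in each.

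The other nuclear subunits of the same complexes, 28 further genes, were all tested, and 0 passed the adjusted threshold. Of them 26 were under 0 (92.9%, against 60.3% of all genes tested), 4 were lower at an unadjusted p under 0.05 (14.3%, against 11.4%) and 0 higher (against 6.74%), with a median of −0.09. That median was 0.15 with libraries scaled to the same FPKM total and 0.32 with the same total without crystallins, and with the same total the medians of all 7 further pathway lists, this one included, were above 0. The 2 with the smallest p were Ndufa13, a complex I subunit (162.9 ± 3.91 FPKM in WT, 138.2 ± 6.45 in FNcKO, ± SD, 3 libraries per group, −0.24, adjusted p = 0.154), and Ndufa12 (58.2 ± 4.08 and 42.2 ± 7.06 FPKM, −0.47, adjusted p = 0.162). The 13 subunits encoded by mitochondrial DNA had no value in WT replicate 2. With 2 WT libraries against 3, 0 passed, 0 reached an unadjusted p under 0.05, 5 were under 0 and the median was 0.04. That median rests on single libraries: it was 0.18 without WT replicate 1, −0.09 without WT replicate 3, −0.02 without FNcKO replicate 1, 0.11 without FNcKO replicate 2 and −0.00 without FNcKO replicate 3. ND3 stood at 151.9 ± 15.2 FPKM (SD, n = 2) in WT and 174.3 ± 19.9 FPKM (SD, n = 3) in FNcKO, and ND1 at 139.1 ± 35.0 and 155.9 ± 20.5 FPKM.

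Of 44 assembly factors, which build the complexes but do not stay in them, 36 were tested and 0 passed, with 5 lower (13.9%, against 11.4% of all genes tested) and 1 higher (2.78%, against 6.74%) at an unadjusted p under 0.05. Their median was −0.05 as deposited and 0.14 with libraries scaled to the same FPKM total. Ndufaf2, a complex I assembly factor, stood at 17.6 ± 1.41 FPKM in WT and 11.7 ± 1.32 FPKM in FNcKO (± SD, 3 libraries per group), at −0.55 with an adjusted p of 0.0671. Among the alternatives it passed only with genes under 5 FPKM left out (adjusted p = 0.0455). Cox17, the copper chaperone for cytochrome c oxidase, stood at 93.9 ± 10.2 and 66.1 ± 2.60 FPKM, at −0.50 with an adjusted p of 0.0682, and passed only under median-ratio scaling (adjusted p = 0.0391). Of 16 regulators of mitochondrial biogenesis, 11 were tested and 0 reached an unadjusted p under 0.05 in either direction. The smallest p values among them were those of Tfam (4 ± 0.308 and 3.50 ± 0.129 FPKM), which packages mitochondrial DNA, and Mterf3 (3.69 ± 0.476 and 2.82 ± 0.851 FPKM). Ppargc1a, a coactivator of the programme, was under the filter at a mean of 0.633 FPKM.

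In the TCA cycle list, 0 of 19 genes passed, 15 were under 0 (78.9%, against 60.3% of all genes tested) and the median was −0.05. Idh2, the mitochondrial NADP-dependent isocitrate dehydrogenase, stood higher, at 43.5 ± 1.64 and 55.9 ± 5.58 FPKM (± SD, 3 libraries per group, 0.35, adjusted p = 0.128), and Suclg2 lower, at 5.22 ± 0.0886 and 4.07 ± 0.490 FPKM (−0.30, adjusted p = 0.161). Among 15 mitochondrial carriers and membrane proteins, 0 passed and the median was −0.03. Vdac1, the outer membrane channel, stood at −0.19 (adjusted p = 0.221) and Slc25a3, the phosphate carrier that serves the ATP synthase, at −0.24 (adjusted p = 0.275).

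Of 10 tissue isoforms and paralogs of subunits and of cytochrome c, 5 passed the filter and 0 the adjusted threshold. Cox7a2l, a relative of Cox7a2, was the most abundant, at 29.5 ± 2.18 FPKM in WT and 28 ± 1.98 FPKM in FNcKO (± SD, 3 libraries per group, −0.08, adjusted p = 0.696), near the level of Cox5a. The other 4 that passed the filter had means under 5 FPKM. Cox6b2, known mainly from testis, measured 2.60, 2.94 and 1.71 FPKM in WT and 7.24, 5.73 and 4.83 FPKM in FNcKO. All FNcKO values lay above all WT values, with a difference of 1.02 (SE 0.186, adjusted p = 0.0636), and it passed with libraries scaled to the same total (adjusted p = 0.0419) or to the same total without crystallins (0.0331). Ndufa4l2, the hypoxia-responsive relative of Ndufa4, measured 1.78, 3.8 and 2.63 FPKM in WT and 1.45, 0.609 and 0.519 FPKM in FNcKO, also without overlap, at −1.01 (SE 0.266, adjusted p = 0.138). Ndufa4l2 and Ndufa4 were thus both lower in FNcKO, and neither passed the test. Cox7a1 (1.24 ± 0.728 and 0.759 ± 0.308 FPKM, SD, n = 3 each), the muscle form beside Cox7a2, overlapped. Cox4i2 was under the filter at a mean of 0.631 FPKM, Cox6a2 at 0.0225 FPKM, Cyct at 0.045 FPKM, Cox7b2 at 0.0964 FPKM, and Cox8c was listed at 0. Cox8b, the muscle form of Cox8a, had a mean of 1.94 FPKM and overlapped.

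Marker genes of the lens and of neighbouring tissues were read beside these results, with sums taken over the markers measured in all 6 libraries. All 12 lens fiber and all 9 lens epithelium markers had a mean of at least 1 FPKM. Summed fiber markers, nearly all of it from the crystallins Crygb, Crygc and Crygd, stood at 115187 to 126703 FPKM in WT and 128517 to 144549 FPKM in FNcKO, with 9 of 12 higher in FNcKO. Summed epithelium markers stood at 1354.7 to 1409 FPKM in WT and 1443.5 to 1660.3 in FNcKO, mostly through Cd24a (837.9 and 1008 FPKM). Of the 9, 4 were lower, and the median difference of the 9 was 0.016. Slc7a5 (6.91 and 10.3 FPKM, adjusted p = 0.0159) and Epha2 (5.74 and 8.33 FPKM, adjusted p = 0.0422) were higher and passed limma's test. Summed rod photoreceptor markers, all 13 above 1 FPKM, were 32.2 to 89.1 FPKM in WT (lowest in WT replicate 2) and 45.5 to 46.9 FPKM in FNcKO. The highest of them, the rod transducin gene Gnat1, went from 20.6 to 9.42 FPKM (adjusted p = 0.0215). Ciliary body and iris markers summed to 23.2 to 32.6 FPKM in WT and 54.6 to 72 FPKM in FNcKO. Most of that rise came from Optc (18.3 and 42.9 FPKM, adjusted p = 0.0682) and Aqp1 (5.27 and 15.6 FPKM, adjusted p = 0.0432). Of the other markers tested, Slc4a4 was level at 2.43 and 2.40 FPKM. Wfdc1 and Zic1 were higher, with limma adjusted p of 0.579 and 0.673. Pigment cell markers summed to 11.6 to 19.0 FPKM in WT and 6.74 to 8.49 FPKM in FNcKO. Ttr, the highest of the pigment cell markers, went from a mean of 8.85 to 3.68 FPKM. Only 2 of these 9 markers, Ttr and Oca2, had a mean of at least 1 FPKM, and both were lower in FNcKO. Those under 1 FPKM did not all go the same way: Mlana was at 0 in every FNcKO library, and Slc45a2 in every WT library. Muscle markers summed to 94.8 to 106.7 FPKM in WT and 65.8 to 78.6 FPKM in FNcKO, almost all of it Acta2, with the other 8 under 1 FPKM. Neuron and glia markers summed to 18 to 25.8 FPKM in WT and 15.4 to 22.4 FPKM in FNcKO. Among them Map2 went from 5.65 to 1.31 FPKM (limma adjusted p = 0.00306), while Glul stood at 9.60 and 11.4 FPKM. Of the 5 tested in this list, 3 were lower and 2 higher. Leukocyte markers summed to 2.05 to 3.83 FPKM in WT and 0.706 to 2.81 FPKM in FNcKO. Endothelium markers summed to 1.17 to 1.38 and 1.35 to 2.00 FPKM (2 at 0). Red blood cell markers summed to at most 0.972 and 1.82 FPKM (2 at 0). Mitochondria-rich photoreceptors, muscle and ciliary epithelium express the same 51 genes, and the part of such cells in the differences was not tested.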

How the data were processed

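The deposited table holds FPKM per gene for 6 libraries, from a strand-specific kit for small inputs of total RNA, per the labels' protocols. Per the submitters' processing notes, the authors used FastQC, cutadapt 1.12, TopHat2 2.1.0 and Cuffdiff 2.2.1 with mm10 and GRCm38.p5. How genes were annotated, whether counting used strand, how reads with several matches were handled and how libraries were scaled is not given in the sources used here. The values are not counts, so no count model was used, and depth is unknown beyond the estimate given. Samples were grouped by the labels' genotype.

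Genes whose mean reached 1 FPKM (10149) were tested on log2(FPKM + 1) with limma 3.58.1 (R 4.3.3), with a trended prior, Benjamini-Hochberg adjustment over all of them, a threshold of 0.05, and 95% intervals from the moderated fit. Fold changes on this scale understate those of low genes. The fit was tested on simulated data. WT replicate 2 had no readable value in 3578 rows, including 742 tested genes and Cox5a, Cox7a2, Cox7b, Uqcrc1 and Ndufa1. Those were fitted on the remaining libraries. WT replicate 3 lacked 1 value, and 27 rows carry dates as symbols. Gene starts are printed 1-based.

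The 51 genes and all other gene lists were chosen with earlier results of these data known. Genes named in full were, per complex, the 2 with the highest level, the lowest, the 3 with the smallest p (2 in complex II) and any past the threshold. Genes beyond this rule were named after their values were seen. In the other lists, the 2 genes with the smallest p were named, with measured paralogs.

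Alternatives changed the pseudocount (0.1, 0.5), the filter (none, 5 FPKM), the scaling (4 others), the prior, the replicate block, rows with missing values and each library in turn. Promoters came from RefSeq (GRCm38.p6). Transcript lengths and pseudogene copies came from GENCODE M21 principal transcripts and blastn, with at least 90% identity over 200 bases. Each limma p-value sets the difference between the groups against the spread between libraries within them, moderated over all genes tested.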

Additional observations from a re-analysis of the deposited data

How the results depend on the processing

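None of the 51 genes passed an adjusted p under 0.05 in any alternative. With every library scaled to the same FPKM total, 2 of the 51 genes reached an unadjusted p under 0.05, both higher (7 as deposited, all lower), 7 were under 0 (39 as deposited), the median difference was 0.15 for these genes and 0.15 for all genes, and complexes I to V stood at 0.14, 0.058, 0.18, 0.17 and 0.16. With the same total without crystallins, 0 were under 0, the medians were 0.32 and 0.29 (0.025 apart), and the complexes stood at 0.31, 0.21, 0.35, 0.35 and 0.34. With quantile normalization, 18 were under 0, the medians were 0.027 and 0.0077 (0.019 apart), and complexes I, III, IV and V stood at 0.022, 0.093, 0.067 and 0.083. The cause of these moves was not tested. Over all genes, 192 passed as deposited, 101 with no filter, 93 with the same total and 89 without crystallins in it. Deviations of same-numbered libraries from their group means had correlations of −0.03, −0.05 and −0.05. With 3 libraries per group, these cannot decide whether libraries of the same number share a batch. A replicate block left 3 of the 51 genes at an unadjusted p under 0.05 and 14 of all genes past the adjusted threshold. Leaving out each library in turn gave 0 to 0 of the 51 genes past the threshold, 3 to 8 at an unadjusted p under 0.05 (lowest without WT replicate 3, then 4 without WT replicate 1), 32 to 44 under 0 and 48 to 111 of all genes past the threshold, below 192 for each of the 6 libraries. The medians then ran from −0.13 to −0.03 for the 51 genes, −0.07 to −0.02 for all genes and −0.07 to −0.00 for the gap between them. Complexes I to V ran from −0.13 to −0.029, −0.21 to −0.13, −0.10 to 0.01, −0.11 to −0.01 and −0.12 to −0.03, with the upper ends of I, III, IV and V from the fit without FNcKO replicate 3. The other alternatives (pseudocounts of 0.1 and 0.5, a filter of 5 FPKM, median-ratio scaling, no trend, rows with every value) kept these results on the same side. With 3 libraries per group and a median standard error of 0.092, even the difference of −0.36 for Cox6c did not pass the adjusted threshold.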

Other observations

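By blastn against GENCODE M21, 18 of the 51 genes have at least 1 annotated pseudogene copy (at least 90% identity over 200 bases), 50 copies in all, and 13 genes have copies with a row in the deposited table. The copies of Atp5c1, Atp5k, Ndufa4 and Ndufa7 with a row summed to under 0.2 FPKM on average. Of the 2 copies of Ndufb3, 1 had a row and was listed at 0. The handling of reads with several matches is not given in the sources used here, so levels of these genes and their copies could share reads. Atp5l, the g subunit of the ATP synthase, had the largest such share, and 11 of its 13 copies had a row. Those summed to 75.2 ± 3.72 FPKM in WT and 70.2 ± 4.95 FPKM in FNcKO (± SD, 3 libraries per group), 70.0% of the level of Atp5l itself. The share was 30.3% for Ndufs3, 25.8% for Atp5g1, 20.7% for Atp5f1, 13% for Uqcrb and 10.5% for Atp5h. Of the 2 copies of Cox6c, 1 had a row, at 0.393% of the gene. That copy stood at 0.428, 0 and 0.172 FPKM in WT and 1.27, 2.57 and 3.96 FPKM in FNcKO, higher in all 3 FNcKO libraries where the gene itself was lower. The median difference was −0.07 over the 18 genes with copies and −0.10 over the 33 without.

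Rows of 12 of the 51 genes share bases with another row of the table, 6 of them with a row of at least 1 FPKM. The longest such overlap was that of Atp5d with Cbarp (1368 bases), followed by Atp5f1 with Wdr77 (751 bases) and Atp5j with Gabpa (701 bases). Gabpa encodes a subunit of GABP, the ETS factor whose motif letters were searched in the promoter windows. The use of strand in counting is not given in the sources used here, so reads in the shared bases cannot be assigned to either gene.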
